A study of Mus musculus with 208 samples.

Results

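The 33 genes described here encode the autophagy machinery and the lysosome: 8 act in initiation, 10 in conjugation, 6 in cargo recognition or sorting and 9 in the lysosome. They were taken by symbol from the gene rows of the count and FPKM tables, which hold 39179 genes, and all 33 were found and passed the filter on low counts at each age. Polyadenylated RNA of the striatum was measured in 208 libraries from C57BL/6 mice. Knock-in mice were heterozygous, with 1 altered huntingtin (Htt) allele and 1 wild-type allele, in lines named after a CAG repeat of 20 (Q20), 80 (Q80), 92 (Q92), 111 (Q111), 140 (Q140) or 175 (Q175). Mice were 2, 6 or 10 months old, and each of the 26 groups (18 knock-in, 8 wild-type) held 8 libraries. Wild types of 6 months came from the cages of each of the 6 lines, and those of 2 and 10 months from the cages of Q20. A group held 4 females and 4 males, except Q80 at 2 months (3 females, 5 males) and Q20 at 10 months (5 females, 3 males). No drug or other agent is named. The knock-in allele is present in every cell of the animal, and Q20, itself a knock-in, was the reference in most comparisons. The labels do not say that each library is a separate animal, so p-values measure the spread between libraries.

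Macroautophagy encloses cytoplasm in a double membrane, the autophagosome, which fuses with the lysosome, where hydrolases digest the content. The ULK kinase complex and the class III phosphatidylinositol 3-kinase start the membrane, and ATG enzymes then attach LC3 and GABARAP proteins to its lipid. Receptors such as p62 (Sqstm1) tether ubiquitinated cargo to these proteins. In neurons the pathway clears aggregated proteins and worn organelles, and mutant huntingtin is among its known substrates. TFEB is a transcription factor of lysosomal genes that binds an E-box of the letters CACGTG.

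Promoter sequence was read because the E-box links part of the lysosomal genes to TFEB. RefSeq promoters (build GRCm38.p6) were found for 25 of the 33 genes, and the 250 bases before the start site were searched. The hexamer CACGTG reads the same on both strands. It was present in 6 of the 25 (Atg3, Atg5, Atg7, Ctsd, Ctsl and Lamp1) and in 6.86% of the 27025 genes with a promoter in the same table. The longer form TCACGTGA, which contains the hexamer and is also its own reverse complement, was present in 2 of the 25 (Atg3 and Ctsd) and in 0.907% of the 27025. Stretches around the hexamers are printed 5′ to 3′ on the strand of the gene, with each CACGTG in capitals. Ctsl and Atg7 are shown because their mRNAs differed between lines, and Lamp1, Ctsd and Atg3 because they hold several copies.
Ctsl, chr13:64370739-64370768, minus strand: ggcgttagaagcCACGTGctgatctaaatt
Atg7, chr6:114670952-114670981, plus strand: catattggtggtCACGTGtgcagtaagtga
Lamp1, chr8:13159088-13159160, plus strand: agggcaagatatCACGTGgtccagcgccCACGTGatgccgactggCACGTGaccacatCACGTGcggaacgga
Ctsd, chr7:142387908-142388077, minus strand: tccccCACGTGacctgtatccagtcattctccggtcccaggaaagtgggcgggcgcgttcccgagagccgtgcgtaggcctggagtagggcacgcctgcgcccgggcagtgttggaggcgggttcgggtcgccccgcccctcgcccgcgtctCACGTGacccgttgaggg
Atg3, chr16:45158723-45158775, plus strand: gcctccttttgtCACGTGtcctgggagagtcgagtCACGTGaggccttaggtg
The 4 copies of Lamp1 began 61, 45, 28 and 15 bases before the start, and the 2 of Atg3 began 94 and 71 bases before it. The 2 copies of Ctsd lay 245 and 98 bases before the start, the single copy of Ctsl 236 bases and that of Atg7 132 bases. The hexamer was not in the searched stretch of Ulk1, Sqstm1, Grn, Lamp2, Vcp, Atg13, Atg9a or Tfeb itself. A match is a run of letters and was not tested as a binding site.

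Total expected counts per library lay between 29.1 M and 49.6 M. The median was 31.9 M for the 2-month libraries and 41.0 M for those of 6 months. At 2 months 7 libraries stood apart, with median correlations of at most 0.98 with the others of their age, and 1 library labelled male had 0 Y-linked counts. At 6 months 3 libraries (Q20 M4, Q92 F2 and Q80 F3) held counts of pituitary, cortical or choroid plexus genes. The summed choroid plexus markers were 5808 CPM in Q80 F3 and as high, at 5849 CPM, in wild-type M2 of the Q80 cages, where the median of that age was 60.8 CPM. They were also raised in Q140 M2 at 6 months (580.0 CPM) and in Q175 F3 at 2 months (823.1 CPM). Htt, the altered gene, was at 155 ± 7.38 CPM (counts scaled to a common library size) in Q175 and 205 ± 5.77 CPM in Q20 at 6 months (SD, n = 8 each), with a log2 change of -0.41 (SE 0.026; edgeR quasi-likelihood test, adjusted p = 6.27e-25). Of 15 medium spiny neuron markers, 14 were lower in Q175 at 6 months, with a median log2 change of -0.75. Their summed level was 6132 to 7122 CPM in Q175 and 10717 to 12455 CPM in Q20. In bulk tissue, fewer cells of a type and less RNA per cell cannot be told apart, and this holds for every gene below.

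Per unit of length, the 33 genes covered a wide range in wild-type striatum at 6 months (48 libraries). Gabarapl1, an LC3-family protein attached to the growing membrane, had the highest median at 271 FPKM (fragments scaled to transcript length and library size). It was followed by the receptor Sqstm1 at 159 FPKM, the aspartic protease Ctsd at 144 FPKM, the lysosomal membrane protein Lamp1 at 134 FPKM and the cysteine protease Ctsb at 112 FPKM. Ranges of neighbouring genes in this order overlapped from Sqstm1 down to Ctsb. Ctsd shares 36.6% of its 50-base stretches with another annotated gene, Gm49369, so its reads may be split between them. The lowest medians were 6.15 FPKM for Atg7, the E1-like enzyme of both conjugation systems, 4.88 FPKM for Tfeb and 4.78 FPKM for Optn, a receptor in the clearance of mitochondria. Gabarapl1 was also the highest of the 33 at 2 months (286 FPKM) and at 10 months (297 FPKM) in wild types.

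**Figure D1:**
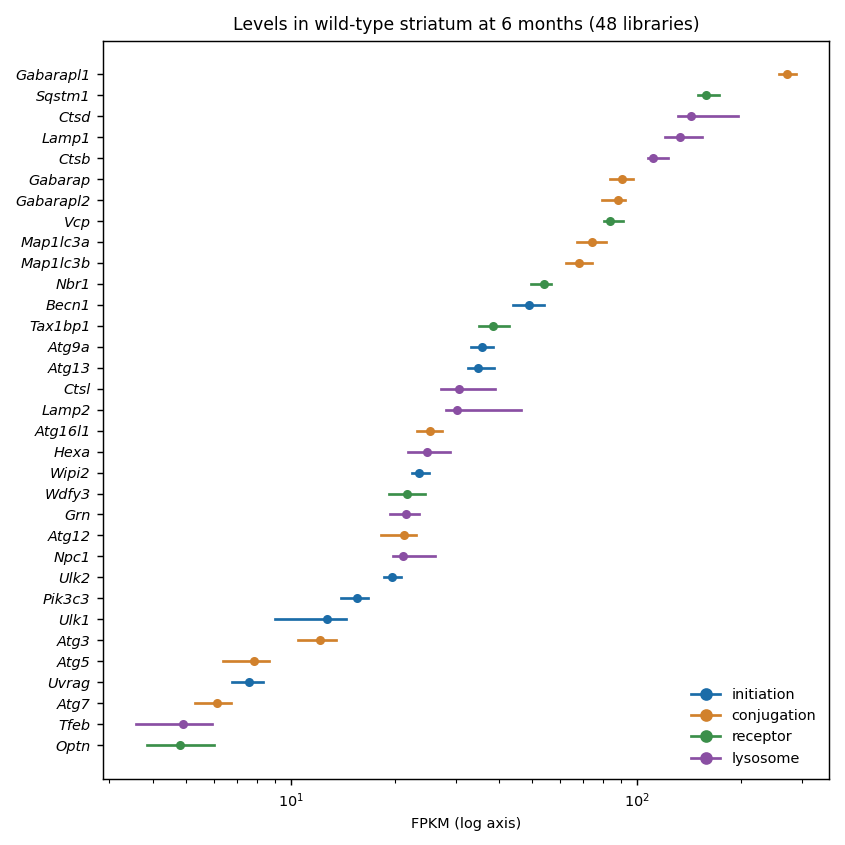
Level of each of the 33 genes in the 48 wild-type libraries of 6 months, in FPKM on a log axis; points are medians, lines run from the lowest to the highest library, and colours give the role. Gabarapl1 lies at 271 FPKM, and Optn and Tfeb lie under 5 FPKM.

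The first question was whether the genes differed between Q175 and Q20 at 6 months. Of the 33, 9 were higher and 5 lower at an adjusted p under 0.05. These were Ulk1, Atg7, Map1lc3a, Sqstm1, Wdfy3, Vcp, Ctsl, Grn and Npc1 among the higher, and Atg13, Atg9a, Atg12, Atg16l1 and Ctsb among the lower. Among all 17642 genes tested, 18% were called higher and 18.2% lower, so a share of the 33 close to the background was called (42.4% against 36.2% in both directions together). Log2 changes of the 33 ran from -0.14 to 0.19, with a median of 0.020 against 0.0097 over all genes. The genes of cargo recognition or sorting had 3 of 6 members higher and 0 lower (median 0.11). These 3 were the receptor Sqstm1, the ATPase Vcp and the scaffold Wdfy3, while the receptors Optn, Nbr1 and Tax1bp1 were not called. Initiation had 1 higher and 2 lower of 8, conjugation 2 and 2 of 10, and the lysosome 3 and 1 of 9. Whether the lower genes were called depended on the scale. When log2(FPKM + 1) was tested with limma, 21 of the 33 were called higher and 0 lower, among 39.2% of genes higher and 12.6% lower. On that scale Atg12, Atg13 and Atg16l1 kept a negative change without passing the test, while Atg9a (0.00062) and Ctsb (0.0068) were no longer negative. Of all called genes, 49.8% were higher on counts and 75.7% on FPKM, and the median change of all genes was 0.067 on FPKM.

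Ulk1 encodes the kinase that starts autophagosome formation. At 6 months its level in Q20 had a lowest, median and highest library of 61.8, 65.9 and 73.4 CPM. In Q140 the same values were 70.7, 72.6 and 78.0 CPM, and in Q175 they were 73.0, 74.7 and 82.1 CPM. All 8 Q175 libraries lay above the Q20 mean, and the ranges of the groups overlapped only at the edges. The log2 change of Q175 against Q20 was 0.19 (SE 0.041; edgeR, adjusted p = 8.77e-05), the largest in size among the 33 at this age. It was 0.14 (SE 0.041; edgeR, adjusted p = 0.00417) for Q140. Other initiation genes differed from Ulk1 in direction. Its partner in the kinase complex, Atg13, was lower in Q175 on counts, at 90.7 to 98.0 CPM against 100.5 to 104.8 CPM in Q20, so that the ranges did not overlap (log2 change -0.11, SE 0.020; edgeR, adjusted p = 6.72e-06). That change was -0.043 (limma, adjusted p = 0.097) on log2(FPKM + 1). The share of all genes whose ranges did not overlap is not given, here or below. Atg9a, the membrane protein of the vesicles that seed the autophagosome, was at 120.5 to 136.4 CPM in Q175 and 130.1 to 147.7 CPM in Q20, with a log2 change of -0.070 on counts (edgeR, adjusted p = 0.0404). On FPKM its change was 0.00062, and without the 3 libraries that stood apart at 6 months it was not called on counts. Part of its sequence (42.3% of its 50-base stretches) occurs in other annotated genes, so its reads may be split between them. Ulk2, Becn1, Pik3c3, Uvrag and Wipi2 were not called, with log2 changes from -0.067 (Uvrag, a subunit of the lipid kinase complex) to 0.027 (Wipi2, which binds its product).

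Among the conjugation genes, Atg7 was at 20.98 to 23.4 CPM in Q20 and 22.8 to 25.5 CPM in Q175. The log2 change was 0.14 (SE 0.031; edgeR, adjusted p = 0.000247), and the ranges overlapped. Map1lc3a, an LC3 protein, was at 64.8 to 70.99 CPM in Q20 and 67.0 to 82.6 CPM in Q175 (log2 change 0.13, SE 0.036; edgeR, adjusted p = 0.00343). Atg12 and Atg16l1 belong to the complex that places LC3 on the membrane. Both were lower on counts in all 8 Q175 libraries against the Q20 mean, at -0.14 (SE 0.037; edgeR, adjusted p = 0.00129) and -0.12 (SE 0.035; edgeR, adjusted p = 0.00398), and neither was called on FPKM. The other 6 conjugation genes (Atg3, Atg5, Map1lc3b, Gabarap, Gabarapl1 and Gabarapl2) were not called and had log2 changes between -0.032 and 0.041.

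Sqstm1 gave the clearest difference among the receptors. Its lowest, median and highest libraries were 314.1, 320.3 and 340.6 CPM in Q20, 338.5, 350.8 and 365.9 CPM in Q140, and 343.9, 350.4 and 386.4 CPM in Q175. Every Q175 library was above every Q20 library, with a log2 change of 0.14 (SE 0.023; edgeR, adjusted p = 3.71e-07). Of its exons, 17.3% overlap Mrnip on the opposite strand. Vcp, the ATPase that extracts ubiquitinated proteins, had a change of 0.096 (SE 0.016; edgeR, adjusted p = 3.96e-07) and ranges of 270.1 to 286.9 CPM in Q20 and 286.3 to 306.9 CPM in Q175, which met at the edges. Its sequence is shared in 60.1% of its 50-base stretches with Vcp-rs, so reads of the 2 genes may not be separable. Wdfy3, a scaffold that brings aggregates to the membrane, was higher by 0.12 (SE 0.030; edgeR, adjusted p = 0.000642) in 7 of 8 libraries. Optn had a change of 0.15 with a larger error (SE 0.089; edgeR, adjusted p = 0.180), and Nbr1 and Tax1bp1 were at -0.037 and 0.0071 without a call.

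Of the lysosomal genes, Ctsl, Grn and Npc1 were higher and Ctsb was lower on counts. Ctsl, a cysteine protease, was at 56.5, 61.0 and 64.3 CPM (lowest, median, highest) in Q20 and at 62.9, 67.2 and 70.5 CPM in Q175. All 8 Q175 libraries lay above the Q20 mean, and the groups overlapped at the edges (log2 change 0.13, SE 0.041; edgeR, adjusted p = 0.00814). Of the Ctsl exons, 26.9% overlap other annotated genes. Grn encodes progranulin, a lysosomal protein whose loss causes neurodegeneration. It was at 45.5, 46.7 and 48.7 CPM in Q20 and 46.7, 50.6 and 57.1 CPM in Q175, with 7 of 8 libraries above the Q20 mean (log2 change 0.13, SE 0.029; edgeR, adjusted p = 0.000204). Npc1, which exports cholesterol, was higher by 0.096 (edgeR, adjusted p = 0.0442), a call that was lost with RLE size factors, without the low-count filter and with wild types as the reference. Ctsb was at 498.7 to 545.5 CPM in Q175 and 533.1 to 557.1 CPM in Q20, a change of -0.064 on counts (edgeR, adjusted p = 0.00901) and of 0.0068 on FPKM. Lamp2, the partner of Lamp1 in the membrane, was at 72.7, 74.5 and 81.3 CPM in Q20 and 77.1, 80.5 and 84.0 CPM in Q175, a change of 0.083 that was not called (SE 0.052; edgeR, adjusted p = 0.212). Lamp1, Ctsd, Hexa and Tfeb were not called either, with changes from -0.046 (Ctsd) to 0.067 (Lamp1). Microglia are rich in Ctsl, Grn and other lysosomal mRNAs. Of 14 microglia markers, 0 were higher and 2 lower in Q175 at 6 months, and their sum was 612.0 to 719.1 CPM against 675.0 to 718.8 CPM in Q20, with no marker at 0. With a microglia score as a covariate, Ctsl was at 0.12 (edgeR, adjusted p = 0.0144) and Grn at 0.14 (edgeR, adjusted p = 1.51e-06).

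**Figure D2:**
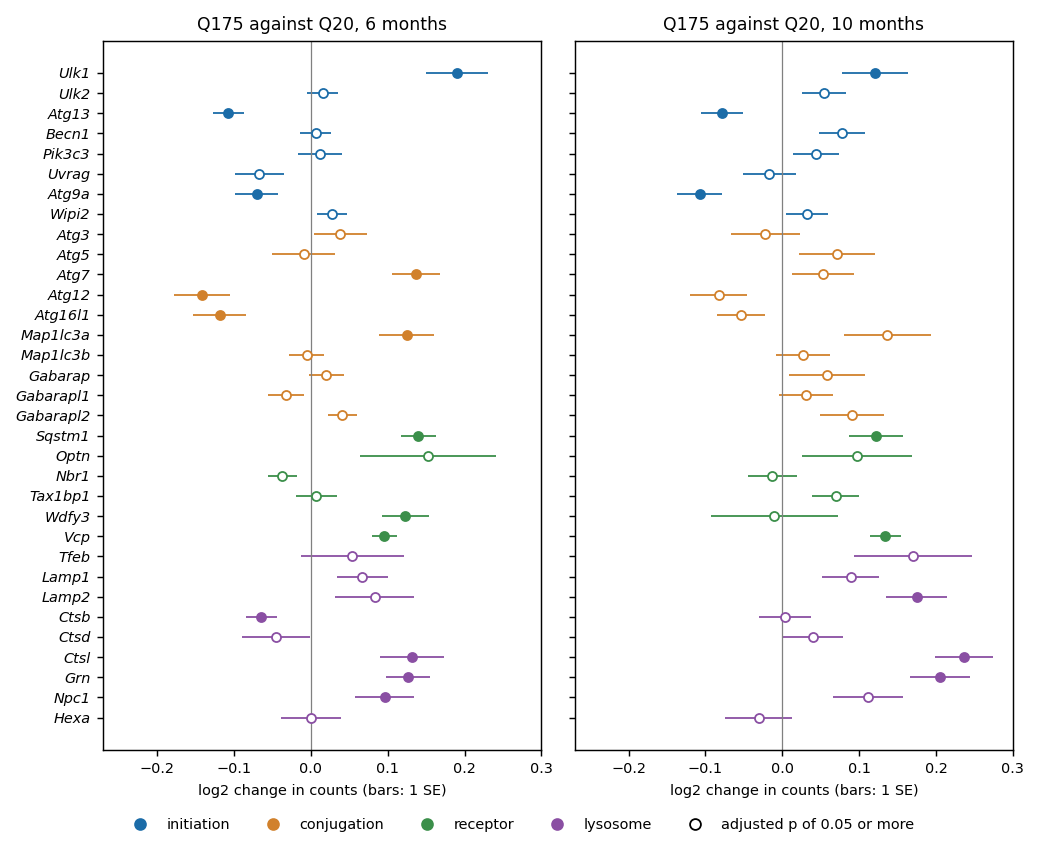
Log2 change in counts of each of the 33 genes in Q175 against Q20 at 6 and 10 months, with bars of 1 SE from the edgeR fit; filled points passed an adjusted p of 0.05, and colours give the role. Ulk1 (0.19) and Ctsl (0.24 at 10 months) lie at the right; on log2(FPKM + 1) none of the genes at the left passed the test, and at 6 months Atg9a (0.00062) and Ctsb (0.0068) were not negative there.

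At 10 months, Q175 against Q20 gave 6 genes higher (Ulk1, Sqstm1, Vcp, Ctsl, Grn and Lamp2) and 2 lower (Atg13 and Atg9a). Over all 17170 genes 12.4% were higher and 12.1% lower. The median log2 change of the 33 was 0.055 against 0.011 over all genes. On counts no conjugation gene was called (0 of 10). Higher were 3 of 9 lysosomal genes, 2 of 6 genes of cargo recognition or sorting (Sqstm1 and Vcp) and 1 of 8 initiation genes. On log2(FPKM + 1), 19 were called higher and 0 lower, among 29% and 8.69% of all genes. These 19 included the conjugation genes Atg5, Atg7, Gabarapl1, Gabarapl2 and Map1lc3a, while the other conjugation genes were not called. Ctsl was at 67.6, 71.4 and 77.6 CPM in Q20 and 81.1, 83.0 and 92.3 CPM in Q175, with no overlap, and its change of 0.24 (SE 0.038; edgeR, adjusted p = 2.06e-06) was the largest of the 33. Grn was at 42.5, 44.3 and 47.0 CPM in Q20 and 45.1, 51.8 and 55.7 CPM in Q175, with all 8 libraries above the Q20 mean (log2 change 0.21, SE 0.039; edgeR, adjusted p = 4.75e-05). Lamp2 was at 88.2, 92.4 and 98.8 CPM in Q20 and 95.2, 105.6 and 112.2 CPM in Q175, again with all 8 above the mean and an overlap (log2 change 0.17, SE 0.040; edgeR, adjusted p = 0.000686). These were the values of the lysosome at the later age, where 1 of 14 microglia markers was higher and 1 lower, with sums of 670.5 to 799.1 CPM in Q175 and 690.0 to 796.0 CPM in Q20. With the microglia score, the changes were 0.23 for Ctsl, 0.19 for Grn and 0.17 for Lamp2. Ulk1 was at 48.98, 57.1 and 62.0 CPM in Q20 and 58.6, 59.8 and 66.6 CPM in Q175 (log2 change 0.12, SE 0.043; edgeR, adjusted p = 0.0319). Its call was lost in 3 of 9 alternatives. Vcp did not overlap between the groups, at 293.1 to 309.6 CPM in Q175 and 270.2 to 283.8 CPM in Q20. Tfeb, with 7 of 8 libraries above the Q20 mean, had a change of 0.17 that did not pass (SE 0.077; edgeR, adjusted p = 0.0991).

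Whether the Q175 difference itself changed with age was tested in a fit of both ages. For the difference at 10 months minus that at 6 months, 0 of the 33 were called, where 0.0448% of 17856 genes were. The smallest adjusted p among the 33 was 0.488, for Becn1 (0.071), and the differences of Ctsl (0.10; edgeR, adjusted p = 0.564) and Lamp2 (0.087; edgeR, adjusted p = 0.712) did not pass. For Q140 0 of the 33 were called as well, against 0.0672% of all genes. Calls at 1 age only, such as Lamp2 and Atg7, were therefore not shown to differ between ages.

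**Figure D3:**
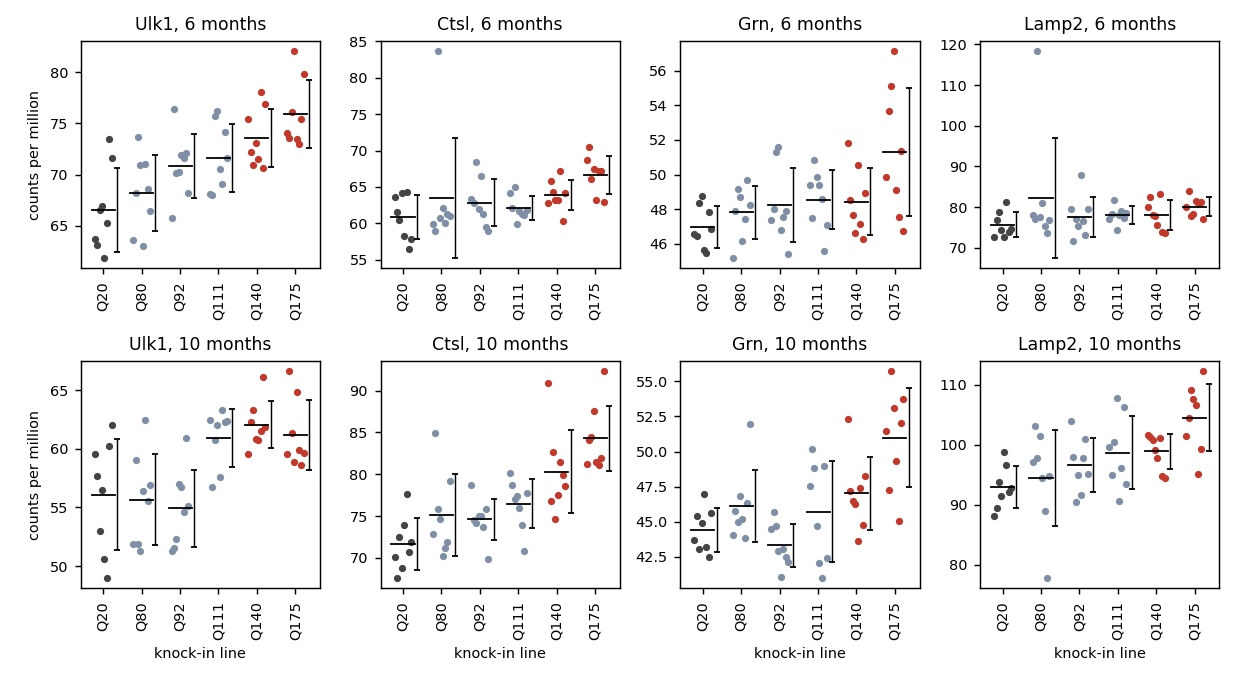
CPM of Ulk1, Ctsl, Grn and Lamp2 in each library of the 6 knock-in lines at 6 and 10 months, with axes that do not start at 0; lines are group means, bars are 1 SD (n = 8), Q20 is dark grey and Q140 and Q175 are red. Q175 has the highest mean for Ctsl and Grn at both ages, and the single high Q80 point at 6 months for Ctsl (83.7 CPM) and Lamp2 (118.4 CPM) is Q80 F3, a library with choroid plexus counts.

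The line Q140 shares the Q20 libraries with the comparison of Q175, so the 2 are not independent. At 6 months Q140 had 5 of the 33 higher (Ulk1, Atg7, Sqstm1, Wdfy3 and Vcp) and 6 lower (Atg12, Atg16l1, Atg13, Uvrag, Ctsb and Ctsd), among 13.8% and 14.1% of all genes. Of these, Ctsd shares 36.6% of its 50-base stretches with Gm49369. On FPKM none of the 6 lower genes was called, and 16 of the 33 were higher, among 29% of all genes higher and 10.9% lower on that scale. Without Q140 M2 and the libraries that stood apart, 4 were higher and 5 lower, and Atg7 and Atg16l1 were not called. Of 14 microglia markers, 10 were lower in Q140, with a sum of 570.0 to 674.5 CPM. With the microglia score as covariate the count was 7 rather than 11. The calls lost were those of Ulk1, Wdfy3, Atg7, Atg16l1, Uvrag and Ctsd, and the 7 include genes that were not called without the score. Of the Becn1 exons, 43.9% overlap Cntd1 on the opposite strand. At 10 months Q140 had 8 higher (Ulk1, Becn1, Atg7, Map1lc3a, Gabarapl2, Sqstm1, Vcp and Ctsl) and 1 lower (Atg13), among 10.9% and 11.6%. Map1lc3a had the largest of these changes at 0.21 (edgeR, adjusted p = 0.00503), and Vcp did not overlap with Q20 at either age. Atg7 was called in 3 of 9 alternatives at 10 months, and 5 of the 33 were called in Q140 when wild types replaced Q20. The share of all genes is not given for that fit, nor for those with libraries left out or with the microglia score. On FPKM 16 were higher and 0 lower, among 24.3% and 8.74% of all genes.

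With shorter repeats few of the 33 differed from Q20. At 6 months Q111 had 1 higher (Atg7, 0.10; edgeR, adjusted p = 0.0209) and 0 lower, among 5.37% and 7.45% of genes, a count that ran from 0 with a label code as covariate to 8 on FPKM, all higher, where 12.4% of all genes were higher and 6.22% lower. Q92 had 4 higher (Atg3, Map1lc3a, Wipi2 and Sqstm1) and 0 lower, among 3% and 2.99%, and 0 without the libraries that stood apart, of which Q92 F2 and Q20 M4 are in this comparison. Q80 had 0, among 0.289% of genes. At 10 months Q111 had 1 higher (Vcp, 0.060; edgeR, adjusted p = 0.0387) and 0 lower, among 5.58% and 6.9%, a count that ran from 0 without the low-count filter to 6 on FPKM, all higher, where 11.3% of all genes were higher and 6% lower. Q92 and Q80 had 0, among 1.12% and 0.122%, and Q80 had 5 with the microglia score as covariate, among 2.1%.

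A slope of log2 level on repeat length was fitted over the 6 lines at each age, with Q175 and Q140 included. At 6 months 9 of the 33 had a positive and 7 a negative slope at an adjusted p under 0.05, among 21.5% and 20.7% of all genes. Slopes are log2 changes per 10 repeats. The steepest were 0.013 for Ulk1 (SE 0.0024; edgeR, adjusted p = 7.14e-06) and 0.0097 for Sqstm1 (SE 0.0014; edgeR, adjusted p = 3.53e-09), with -0.0092 for Atg12 and -0.0078 for Atg13 on the negative side. On FPKM 21 slopes were positive and 1 negative at 6 months, among 42.5% and 14.7% of all genes, and 21 and 0 at 10 months, among 37% and 11.2%. At 10 months 9 were positive and 4 negative, among 17.7% and 16.6%. Ctsl had the steepest slope there (0.015, SE 0.0022; edgeR, adjusted p = 1.69e-07), and Grn, Ulk1, Lamp2 and Vcp followed at 0.012, 0.011, 0.011 and 0.0100. Without Q175 the counts were 6 positive and 6 negative at 6 months, and 9 and 1 at 10 months. The share of all genes is not given for that fit. Levels of Ulk1 at 6 months had medians of 65.9, 68.4, 71.0, 71.1, 72.6 and 74.7 CPM from Q20 to Q175. Neighbouring lines in this order overlapped in their library ranges.

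Wild types from the same cages gave a second reference, with the same Q175 libraries but none of Q20. Against them at 6 months, Q175 had 8 of the 33 higher (Ulk1, Atg7, Map1lc3a, Sqstm1, Wdfy3, Vcp, Ctsl and Grn) and 7 lower (Atg13, Atg9a, Uvrag, Atg3, Atg12, Nbr1 and Ctsb), among 15.7% and 16.1% of genes. On FPKM 16 were higher and 1 lower, among 38.5% and 11.2% of all genes. Ulk1 was at 66.3 to 69.9 CPM in these wild types, below every Q175 library (log2 change 0.17, SE 0.041; edgeR, adjusted p = 0.000628). Sqstm1 and Vcp likewise did not overlap. Grn had a change of 0.14 (edgeR, adjusted p = 3.17e-05) and Ctsl of 0.13 (edgeR, adjusted p = 0.00766), and Lamp2 at 0.071 was not called (edgeR, adjusted p = 0.318). Q140 had 6 higher and 1 lower against its own cage mates, among 12.4% and 11.7%, and Ulk1, Sqstm1 and Vcp again did not overlap. On FPKM 11 were higher and 0 lower, among 25.5% and 9.54%. Q111, Q92, Q80 and Q20 had 0 of the 33 called against theirs, among 8.94%, 0.051%, 0.051% and 0.0227% of genes, and on FPKM Q111 had 4 higher and 0 lower, among 10.9% and 3.69%. Q20 also had 0 against wild types at 2 months (0% of genes) and at 10 months (0.0116%).

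At 2 months 0 of the 33 were called in any line. The share of all 17006 genes called was 0.218% in Q175, 0% in Q140, 0.0176% in Q111, 0% in Q92 and 0.0118% in Q80, and 0.594% for the slope on repeat length, where 0 of the 33 were called too. Changes of the 33 in Q175 ran from -0.21 to 0.11, with a median SE of 0.066. Several of these values rested on 2 of the libraries that stood apart, Q20 M2 and Q20 M3. Gabarap, an LC3-family protein, was at 102.0 to 110.1 CPM in the other 6 Q20 libraries and at 221.0 and 213.0 CPM in these 2. Its change in Q175 was -0.21 with all libraries and 0.12 (edgeR, adjusted p = 0.328) without those that stood apart. Map1lc3a turned from -0.19 to 0.14 and Wdfy3 from 0.11 to -0.11 in the same way. Without them 0 of the 33 were called, and the smallest adjusted p in Q175 was 0.189. When Q175 F3, with its choroid plexus counts, was left out as well, the slope of Sqstm1 was called (0.0073 per 10 repeats, SE 0.0019; edgeR, adjusted p = 0.0338), among 1.47% of genes, in a fit chosen after seeing the data.

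**Figure D4:**
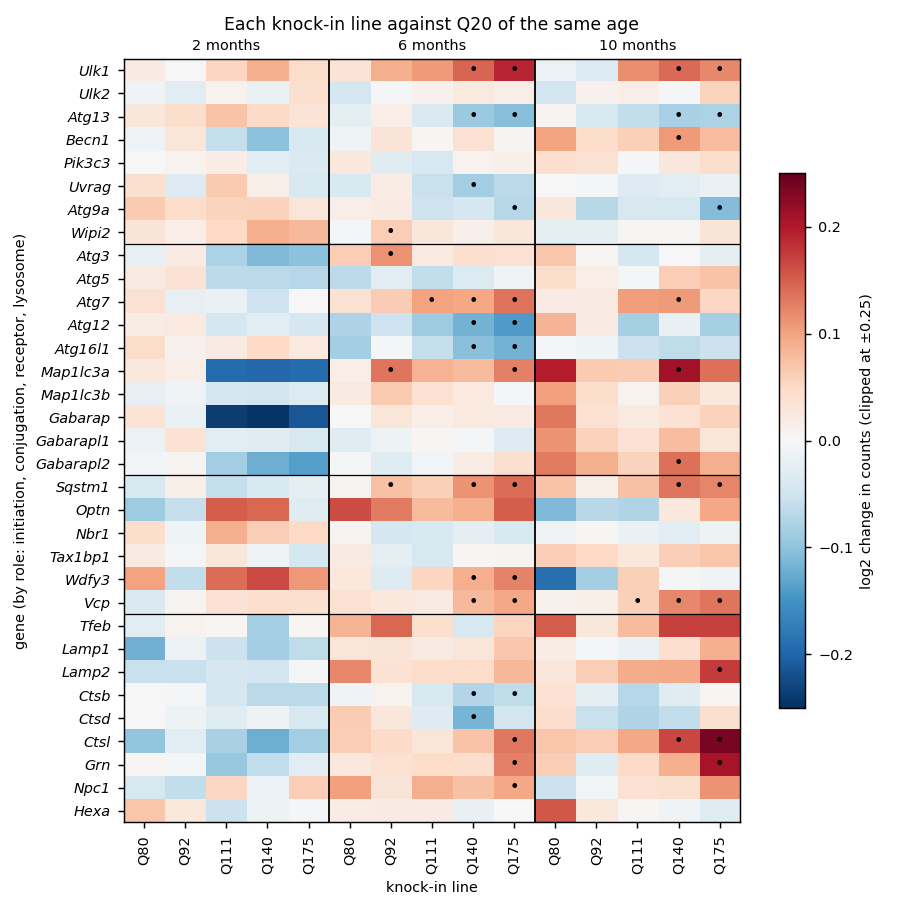
Log2 change in counts of each of the 33 genes (rows, by role) in each line against Q20 of its age (columns), with red for higher and blue for lower, colours clipped at 0.25, and a dot where the adjusted p is under 0.05. Dots are absent at 2 months and lie mostly in Q140 and Q175 at 6 and 10 months; the dark blue cells at 2 months (Gabarap, Map1lc3a) turned positive in Q175 without the libraries that stood apart, and blue cells with dots were not called on FPKM.

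Females and males gave no detectable difference in the Q175 effect. The test of males minus females called 0 of the 33 at 6 months (0% of 17969 genes; edgeR, 1006 at an unadjusted p under 0.05) and 0 at 10 months (0% of 17679 genes; edgeR, 756 unadjusted), and DESeq2 called 0 of the 33 at both ages. The smallest adjusted p at 6 months was that of Hexa, a hydrolase of gangliosides, with a difference of -0.26 (edgeR, adjusted p = 0.702).

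Because the direction of some of the smaller changes differed with the scale, each gene was compared on both. At 6 months 22 of the 33 changes in Q175 were positive on counts scaled by TMM and 30 on log2(FPKM + 1), with medians of 0.020 and 0.087. At 10 months 24 and 30 were positive, with medians of 0.055 and 0.10. Ulk1 (0.19 on counts, 0.25 on FPKM), Sqstm1 (0.14 and 0.21), Ctsl (0.13 and 0.20) and Grn (0.13 and 0.18) were called on both at 6 months. With 12 alternatives at 6 months, Ulk1, Atg7, Map1lc3a, Sqstm1, Wdfy3, Vcp, Ctsl and Grn stayed called in all 12 in Q175, and so did Sqstm1, Vcp, Ctsl, Grn and Lamp2 in all 9 at 10 months.

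**Figure D5:**
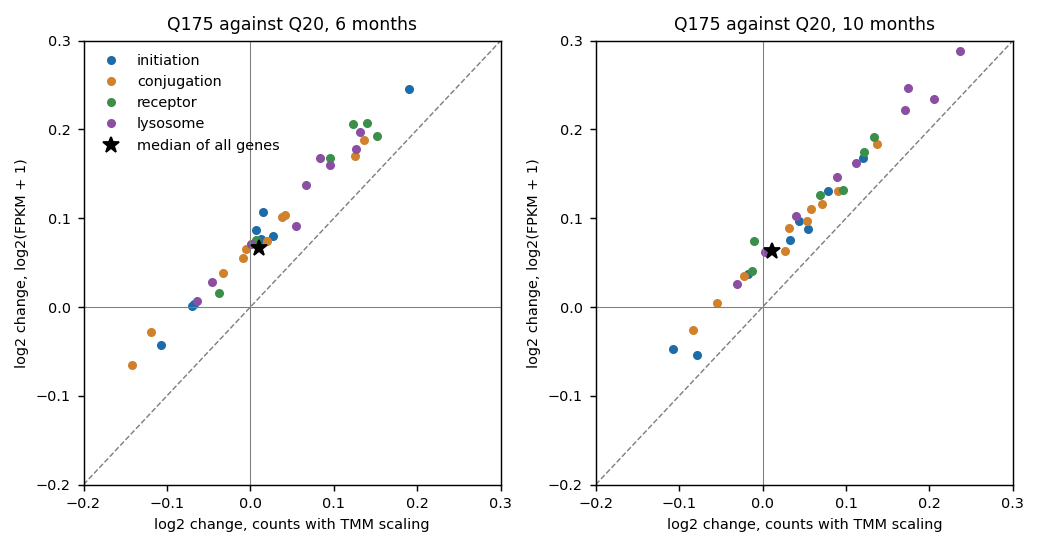
Log2 change of the 33 genes in Q175 against Q20 on counts scaled by TMM (x axis) and on log2(FPKM + 1) (y axis) at 6 and 10 months; the dashed line marks equal values and the star the median of all genes. Nearly every point lies above the dashed line, and at 6 months the star is at 0.0097 and 0.067.

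Other genes of the pathway, in lists drawn up by function, were counted for Q175 at 6 months against the same 18% higher and 18.2% lower. V-ATPase subunits, which acidify the lysosome, had 9 of 18 higher and 2 lower (median 0.058). Other lysosomal hydrolases and cofactors had 12 of 41 higher and 4 lower (median 0.058), and other lysosomal membrane genes 6 of 14 higher and 0 lower (median 0.069). Other conjugation genes had 3 of 7 higher and 0 lower. Other receptor and mitophagy genes, the latter for the clearance of mitochondria, had 4 of 15 higher and 2 lower. Other initiation genes had 1 of 17 higher and 4 lower, and fusion genes 0 of 12 higher and 1 lower. Regulators of mTORC1 and TFEB, the nutrient-sensing kinase complex and its target, had 7 of 29 higher and 9 lower. At 10 months, among 12.4% higher and 12.1% lower, the counts were 7 and 0 for V-ATPase subunits, 9 and 3 for hydrolases, 3 and 0 for membrane genes and 2 and 0 for conjugation genes. They were 1 and 1 for receptor and mitophagy genes and 1 and 2 for initiation genes. Fusion genes had 0 and 0, and the regulators 3 and 3.

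Single genes of these lists moved more than any of the 33. Foxo1, a transcription factor of autophagy genes, was at 82.4 ± 3.5 CPM in Q175 and 119.2 ± 7.7 CPM in Q20 (SD, n = 8 each), a log2 change of -0.53 (SE 0.070; edgeR, adjusted p = 1.16e-09), and of -0.43 at 10 months. Rragd, a Rag GTPase that recruits mTORC1 to the lysosome, changed by -0.41 at 6 months and -0.35 at 10 months, while its relative Rragb changed by 0.22 at 6 months. Galns, a lysosomal sulfatase, was at 5.90 ± 0.57 CPM in Q175 and 4.195 ± 0.81 CPM in Q20 (SD, n = 8 each), a change of 0.50 (edgeR, adjusted p = 1.51e-06), and of 0.46 at 10 months. The other genes named at 6 months were Calcoco1 (-0.29), Zkscan3 (-0.27), Sesn3 (-0.25), Laptm4b (0.27), Atg16l2 (0.25) and Slc17a5 (0.23). At 10 months the sulfatase Arsb (0.24) and the sulfamidase Sgsh (0.24) were also higher. Each of these differences at 6 months was in the same direction in 8 of 8 Q175 libraries against the Q20 mean. Beside them, 8 of 10 endothelial and mural markers and 3 of 10 oligodendrocyte markers were lower at 6 months and 0 higher, 3 of 10 astrocyte markers were lower and 1 higher, and the medium spiny neuron markers were lower as given above. The part of these shifts in the results was not tested.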

How the data were processed

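Total RNA was extracted with a miRNeasy kit and polyadenylated RNA was sequenced, per the labels' protocols. The submitters' processing notes name CASAVA 1.8.2. No source used here gives the aligner, the build or the strand setting. The authors deposited expected counts per gene (32.7% of positive values were not whole) and FPKM per gene, in tables of 208 libraries and 39179 identifiers, of which 37607 (96.0%) matched a symbol.

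Expected counts were rounded, scaled by TMM and tested with edgeR 4.0.16 (R 4.3.3) by quasi-likelihood, after edgeR's expression filter (count 10, total 15). The 3 ages had separate fits with terms for group and sex, and p-values were adjusted by Benjamini-Hochberg over all genes tested at a threshold of 0.05. CPM refers to the TMM-scaled library, and SE is the size of the log2 change over the square root of F. Slopes used 10 repeats as the unit. The deposited FPKM were tested with limma 3.58.1 as log2(FPKM + 1), on genes at 1 FPKM or more in 8 libraries, and as log2(FPKM + 0.1) without a filter. Fold changes on that scale are understated for low genes. DESeq2 1.42.0, RLE size factors, no count filter, a replicate block, only the groups compared, wild types as reference, libraries left out, a microglia score and a label code were the other alternatives. A fit that also leaves out the libraries with over 500 CPM of choroid plexus markers was chosen after seeing the data. Promoters were searched with Python 3.11.15. The scripts were tested on simulated data.

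Libraries were called apart where the median correlation with those of the same age was under 0.98, a limit that differs from the planned one and suits the log scale used here. Also set apart were libraries labelled male without Y-linked counts and, by name, Q20 M4, Q92 F2 and Q80 F3 of 6 months. Wild-type M2 of the Q80 cages was not set apart, and was left out only in the fit on choroid plexus markers. Replicate numbers were checked in 21 pairs of groups. Same-numbered libraries of Q175 and Q20 at 6 months correlated in all 8 pairs (r from 0.116 to 0.317, with 5 of 8 highest with their own number), and in the other pairs of groups at least 1 correlation was under 0.1. The 33 genes and the gene lists were chosen with earlier results of these data known. Every one of the 33 is accounted for: levels by library and full statistics were due for those called in Q175 against Q20 at 6 or 10 months with a change of at least 0.15 in size, and ranges of other called genes were added after their values were seen. From the other lists, the 10 largest called changes in Q175 at 6 months and the 5 largest at 10 months were named, with a mean of at least 1 CPM. Depth was 29.1 M to 49.6 M counts per library.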

Additional observations from a re-analysis of the deposited data

Results flagged for a closer look

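Values of 4 lysosome and initiation genes (Ulk1, Ctsl, Grn and Lamp2) in all 26 groups, and of the other called genes in Q20 and Q175 at 6 months, were examined for a library far from the other 7 of its group. In 15 of 126 groups of values the gap to the nearest library was a larger share of the group's range than Dixon's 95% limit, and chance gives about 5% of groups.

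Ctsl was high in Q80 M5 at 2 months, at 99.8 CPM with the nearest library at 70.2 CPM, and Grn was high in the same library at 62.6 CPM (nearest 46.6). Ctsl was also high in Q111 F2 (85.7 CPM, nearest 71.2), Q140 F4 (80.7 CPM, nearest 69.8) and wild-type F1 (79.8 CPM, nearest 70.7) at 2 months. Of these, Q80 M5, Q111 F2 and the wild-type F1 are among the libraries that stood apart. At 6 months Q80 F3, which held choroid plexus counts, had Ctsl at 83.7 CPM (nearest 62.1) and Lamp2 at 118.4 CPM (nearest 81.1). Wild-type M2 of the Q80 cages, with choroid plexus markers summing to 5849 CPM against 5808 CPM in Q80 F3, had Ctsl at 76.2 CPM (nearest 67.4) and Lamp2 at 113.4 CPM (nearest 84.4).

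In Q175 at 2 months, Grn was at 50.1 CPM in F4 (nearest 44.0) and Lamp2 at 91.6 CPM in F3 (nearest 81.8), where choroid plexus markers summed to 823.1 CPM. In Q80 at 10 months Grn was at 52.0 CPM in M4 (nearest 46.8). Ulk1 was high in 2 wild types of 6 months, at 70.6 CPM in M1 of the Q140 cages (nearest 67.5) and 70.7 CPM in M4 of the Q80 cages (nearest 67.4). It was low in M1 of the Q20 cages at 47.2 CPM (nearest 66.2).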

How the results depend on the processing

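Across 30 counts of called genes and 319 alternatives, 286 counts stayed within 1.5 times the value reported and 33 did not. Where the share of all genes called under a setting is not given, here or above, a moved count was not compared with the background. For log2(FPKM + 1) the count was 8 in Q111 at 6 months, 4 in Q111 and 11 in Q140 against their cage mates, 6 in Q111, 16 in Q140 and 19 in Q175 at 10 months, and 21 for the slope at 10 months. For log2(FPKM + 0.1) it was 5 in Q111 at 6 months, 4 in Q111 against cage mates, 4 in Q111 and 17 in Q175 at 10 months, and 21 for the slope. The changes of Atg9a and Ctsb in Q175 at 6 months were just above 0 on these scales, at 0.00062 and 0.0068 with either pseudocount. By pseudocount they were 0.000616 and 0.000617 for Atg9a, and 0.00678 and 0.00683 for Ctsb. The median change of all genes in that comparison was 0.0097 on counts and 0.067 on log2(FPKM + 1). Without the count filter, Q92 at 6 months had 1 and Q111 at 10 months 0. With only the groups compared, Q92 had 0 and Q111 had 2 at 6 months, and Q111 had 0 at 10 months. Without the libraries that stood apart, Q92 had 0 and Q111 had 3 at 6 months. Without these and the libraries with choroid plexus markers, a setting chosen after seeing the data, Q92 again had 0 and Q111 had 3 at 6 months, and the slope at 2 months had 1. With wild types as the reference, Q111 had 4 at 6 months and 3 at 10 months, and Q140 had 5 at 10 months. With the microglia score, Q140 had 7 at 6 months, and Q80 had 5 and Q111 had 4 at 10 months. DESeq2 gave 1 in Q111 against cage mates and 2 in Q80 at 10 months, and the label code gave 0 in Q111 at 6 months. With the replicate block, Q111 had 3 at 6 months and 1 against cage mates. Q175 at 6 months kept 14 calls in the same directions. Same-numbered libraries of Q175 and Q20 correlated weakly there, and the labels do not say what the number shares. The cause of these shifts was not tested. For 42 called values of single genes, 388 alternative values were still called, 61 were not and 4 changed sign. At 2 months the median SE in Q175 was 0.066, and 0.039 without the libraries that stood apart.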
